A study of Homo sapiens with 16 samples.

Results

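The genes described here were 9 that link methionine metabolism to cysteine, glutathione and vitamin B12, chosen by name from the 33937 genes counted. *CTH* and *CBS* stood for transsulfuration, *GCLC*, *GCLM* and *GSS* for glutathione synthesis, and *MMAA*, *MMAB*, *MMACHC* and *MMADHC* for the intracellular handling of cobalamin (vitamin B12). RNA was sequenced from HCT116, an established human colorectal carcinoma line made into stable lines that carried either a scramble control (SCR) or a short hairpin RNA against *NAA40*, which encodes the N-terminal acetyltransferase of histones H4 and H2A. The hairpin is meant to be switched on by doxycycline (dox), which was given at 1 μg/ml for 96 h or left out. With the lines labelled SCR and NAA40-KD, and each of them labelled (−dox) or (+dox), there were 4 groups of 4 libraries, described in the methods as independent RNA samples. Whether these came from separate cultures is not stated, so that p-values measure the spread between these samples only. Every group carried an integrated hairpin construct, and only 1 knockdown line and 1 scramble line were sequenced, so in comparisons between the lines, other differences between the lines and effects of the hairpin cannot be told apart.

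In transsulfuration, the sulfur of homocysteine, made in the methionine cycle, is passed through cystathionine to cysteine. Cysteine, much of it also imported as cystine, is joined to glutamate and then to glycine to give glutathione, the main soluble thiol of the cell, and the first of these steps limits the rate. Cobalamin is trimmed and sorted inside the cell and then serves methionine synthase in the cytosol and methylmalonyl-CoA mutase in mitochondria, so that its handling meets the same methionine cycle.

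The 150 bases before the annotated start are shown for the 3 genes that met the test in at least one comparison of the full set of libraries (*CTH*, *GCLM* and *MMAA*), and for *MMACHC*, whose upstream stretch held a motif known from the cobalamin pathway. They are RefSeq sequences on GRCh38.p14, at chr1:70411118-70411267 on the plus strand for *CTH*, chr1:93909431-93909580 on the minus strand for *GCLM*, chr4:145619235-145619384 on the plus strand for *MMAA* and chr1:45500150-45500299 on the plus strand for *MMACHC*. The RefSeq starts used here differ from the GENCODE 29 gene bounds given below, and the stretches of *MMAA* and *MMACHC* lie inside those bounds. Capitals mark a match, on either strand, to the core of the antioxidant response element bound by NRF2 (TGACNNNGC) in *GCLM* and *MMAA*, and to the core bound by the ZNF143-THAP11 complex (ACTACNNNTCC) in *MMACHC*.
CTH: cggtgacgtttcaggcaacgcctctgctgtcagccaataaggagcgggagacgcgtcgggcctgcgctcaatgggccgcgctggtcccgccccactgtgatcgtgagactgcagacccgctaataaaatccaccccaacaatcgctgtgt
GCLM: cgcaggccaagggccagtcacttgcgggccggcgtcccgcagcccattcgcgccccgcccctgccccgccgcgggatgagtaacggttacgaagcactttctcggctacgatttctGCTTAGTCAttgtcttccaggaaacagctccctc
MMAA: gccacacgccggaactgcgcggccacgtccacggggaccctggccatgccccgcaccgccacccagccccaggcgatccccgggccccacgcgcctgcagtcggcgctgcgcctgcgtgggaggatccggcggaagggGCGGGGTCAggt
MMACHC: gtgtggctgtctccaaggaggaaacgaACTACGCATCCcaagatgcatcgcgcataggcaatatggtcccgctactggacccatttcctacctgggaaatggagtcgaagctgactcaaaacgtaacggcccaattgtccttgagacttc
Windows from 250 bases before to 50 bases after the start were searched for 8 of the 9 genes. *GSS* had no window. Counting the start as 0, the match in *GCLM* ran from position -34 to -26, that in *MMAA* from -12 to -4 and that in *MMACHC* from -123 to -113. The antioxidant core was also present in *MMAB*, from -8 to 0, and in 1 of the 3 windows of *CBS*. It occurred in 13.3% of all 35116 windows, and the ZNF143-THAP11 core in 2.51%. The core of the composite site of ATF4 and C/EBP (TGATGNAA), present in 3.62% of all windows, was found in no window of these genes. The motifs were chosen after the sequences had been seen, and a match is a description of the letters only.

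*NAA40* was examined first, because it checks the labels. Its level, in CPM (counts scaled to TMM-adjusted library size), was 34.4, 25.9, 29.01 and 28.2 in SCR (−dox) and 26.0, 28.3, 26.1 and 28.8 in SCR (+dox). In the knockdown line it was 12.6, 11.5, 9.25 and 13.8 where the label was (−dox), and 31.4, 29.2, 28.6 and 31.8 where it was (+dox). The gene was thus low in the libraries labelled without doxycycline and not in those labelled with it, which goes against the labels. It was lower by a log2 fold change of −1.31 ± 0.18 (SE) in NAA40-KD (−dox) than in SCR (−dox) (edgeR, adjusted p = 0.00521). In NAA40-KD (+dox) against SCR (+dox) the log2 fold change was 0.15 ± 0.10 (adjusted p = 0.281). Each direction below is that of the libraries as labelled. Whether the (−dox) and (+dox) labels of the knockdown line were exchanged was not tested. With an exchange, the signs of the changes within that line would turn, and each comparison between the lines would set libraries with and without doxycycline against each other. The interaction given below would alter in size as well as sign, since the change within SCR would stay as it is.

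Total counts ran from 11065606 to 13855486. Replicate 4 of NAA40-KD (−dox) stood apart: its genes differed from the other libraries of the group by a median of 0.717 on the log2 scale, against 0.0819 to 0.278 in the other 15 libraries. Its deviation from its group rose with the GC content of genes (r = 0.894 across 14366 genes, which are not independent), against −0.758 to 0.636 in the others, where the lowest values were those of the other 3 libraries of its own group. For the 9 genes, fold changes between the lines without doxycycline are therefore given with and without that library, and with all libraries after an offset for GC content, an alternative chosen after the data had been seen. For other genes of the pathways, values with the GC offset are not given, and values without that library are given where they bear on a call. Of 11 markers of colorectal epithelium, 8 were above 10 CPM in every library, whereas *CDX1* and *VIL1* stayed below 1 CPM. Their summed level was 5670 to 12341 CPM in NAA40-KD (−dox), with the top value in replicate 4, and 4068 to 5844 CPM elsewhere. Without replicate 4, 5 of 9 tested markers were higher and 1 lower than in SCR (−dox), beside 17.1% and 19.4% of all genes. Of 16 markers of other cell types, 11 stayed below 1 CPM. The sum of all 16 was 74.8 to 211 CPM in NAA40-KD (−dox) and 67.4 to 108 CPM elsewhere. Most of that sum was *COL1A1*, a collagen gene listed for fibroblasts, at 56.6 to 195 CPM over all libraries. Its top value, and that of the sum, were also those of replicate 4 of NAA40-KD (−dox). Without that library *COL1A1* had a log2 fold change of −0.05 ± 0.14 against SCR (−dox) (edgeR, adjusted p = 0.827). The next highest, *DES*, reached 11.7 CPM. The part of these markers in the results was not tested, and in such bulk samples fewer expressing cells and less RNA per cell cannot be told apart.

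Relative to gene length, taken as all annotated exons of a gene, the order of the genes was similar in all groups. *MMADHC* was the highest, with group means of 51.0 to 63.8 CPM per kb of exon, followed by *GSS* (17.0 to 19.0). *GCLC* (9.20 to 10.3) and *CTH* (7.98 to 12.5) overlapped, and so their order was not fixed. *GCLM* (5.50 to 7.07), *MMACHC* (2.87 to 3.94), *MMAB* (1.61 to 2.29) and *MMAA* (0.498 to 1.08) followed, and the group means of these 4 did not overlap. Single libraries did overlap: they ran from 7.54 to 13.6 CPM per kb for *CTH*, 3.11 to 7.80 for *GCLM*, 2.54 to 4.53 for *MMACHC* and 1.32 to 2.64 for *MMAB*, and *MMAA* (0.373 to 1.30) lay just below *MMAB*. All annotated exons come to 8646 bases for *GCLC* and 2414 for *CTH*, while their longest coding transcripts have 3813 and 2044 bases. The overlaps between genes given here, and the size of the ratios per kb below, therefore depend on the length chosen. In every comparison 8 of the 9 genes passed the filter on low counts, and *CBS* did not.

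**Figure D1:**
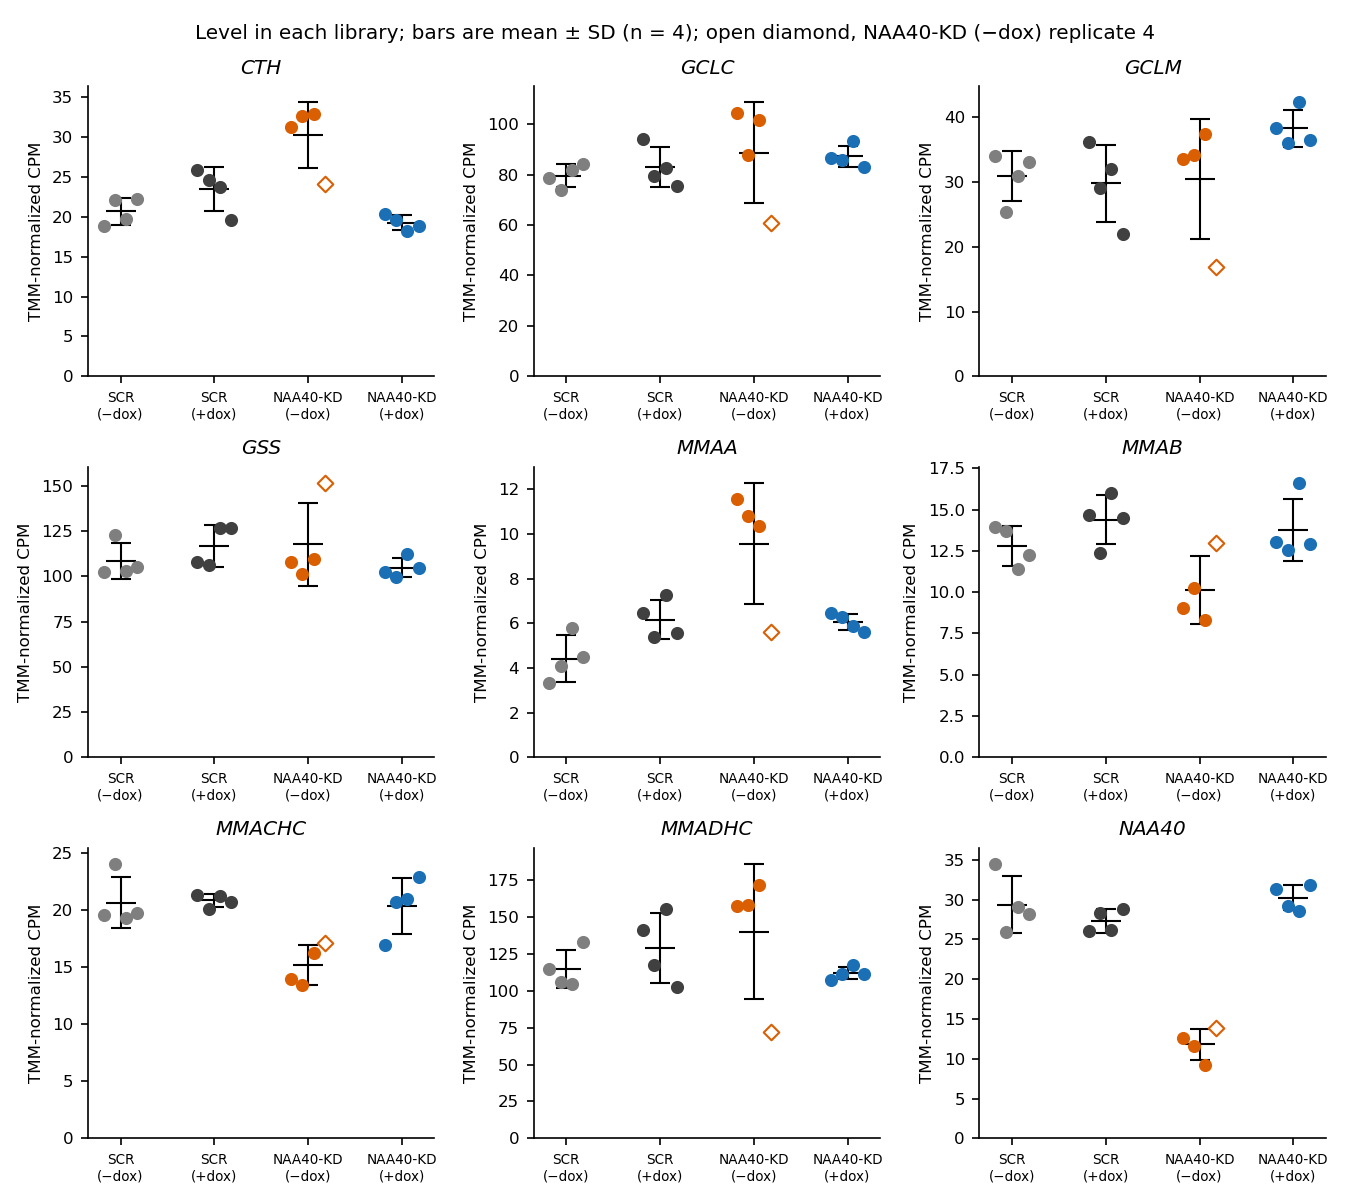
Level of 8 of the genes and of *NAA40* in each of the 16 libraries (y axes, TMM-normalized CPM; x axes, group). Points are libraries, bars are mean ± SD (n = 4) and the open diamond is replicate 4 of NAA40-KD (−dox), which lay below the other 3 libraries of its group for *CTH*, *GCLC*, *GCLM*, *MMAA* and *MMADHC* and above them for *GSS*, *MMAB* and *MMACHC*.

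*CBS*, the enzyme that joins homocysteine to serine, could not be read. It had 0 counts in 15 of the 16 libraries and 2 counts in replicate 3 of NAA40-KD (+dox), and a count of 0 allows up to 0.271 CPM in the shallowest library (3 counts, counting error only). *CBS* lies at chr21:43053191-43076943 on the minus strand, and GENCODE 29 places a near-identical copy, *CBSL*, at chr21:6444869-6468040. Of all 50-base stretches of an annotated *CBS* transcript of 2605 bases, 94.6% occurred in *CBSL* as well. *CBSL* had 1 count in 1 library. How reads that map to several places were treated is not given in the sources used here, so these zeros say nothing about whether the gene was expressed.

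*CTH* (cystathionine gamma-lyase, the enzyme that releases cysteine from cystathionine; chr1:70411218-70439851, plus strand) had its highest mean in NAA40-KD (−dox), at 30.2 ± 4.11 CPM (SD, n = 4), against 19.3 to 23.5 in the other groups. Its levels were 31.3, 32.6, 32.8 and 24.2 CPM in NAA40-KD (−dox), and 20.4, 19.6, 18.2 and 18.8 CPM in NAA40-KD (+dox). In SCR they were 18.9, 22.1, 19.7 and 22.2 CPM without and 25.9, 24.6, 23.8 and 19.6 CPM with doxycycline. All 4 libraries of NAA40-KD (−dox) were thus above all 4 of SCR (−dox) and of NAA40-KD (+dox), and the 3 other than replicate 4 were above every library of the series. In the knockdown line the level was lower with than without doxycycline, by a log2 fold change of −0.65 ± 0.14 (0.636-fold; edgeR, adjusted p = 0.0203). That call was lost without any 1 of 7 of the 8 libraries, with adjusted p from 0.0513 to 0.0895 and fold changes from −0.68 to −0.62, and held without replicate 4 of NAA40-KD (−dox). In NAA40-KD (−dox) against SCR (−dox) the log2 fold change was 0.55 ± 0.16, which missed the threshold (adjusted p = 0.0636). It passed without replicate 4, at 0.63 ± 0.10 (adjusted p = 0.000214), and in all libraries with the GC offset, at 0.67 (adjusted p = 0.000383). In NAA40-KD (+dox) against SCR (+dox) *CTH* had a log2 fold change of −0.29 ± 0.11 (adjusted p = 0.0619), which passed with the GC offset (−0.31, adjusted p = 0.0124). The interaction, the change with doxycycline in the knockdown line minus that in SCR, was −0.83 ± 0.18 on the log2 scale (adjusted p = 0.00865), −0.93 ± 0.14 without replicate 4 and −0.98 with the GC offset, and missed the threshold in 1 of 24 alternatives, with no filter (adjusted p = 0.0691).

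*GCLC*, the catalytic subunit of glutamate-cysteine ligase, which makes gamma-glutamylcysteine (chr6:53497341-53616970, minus strand), differed little between groups. It was at 104, 87.8, 102 and 61.0 CPM in NAA40-KD (−dox), at 86.7, 85.9, 93.1 and 83.0 CPM in NAA40-KD (+dox), at 78.6, 73.8, 81.8 and 84.1 CPM in SCR (−dox), and at 94.0, 79.6, 82.6 and 75.5 CPM in SCR (+dox). Replicate 4 of NAA40-KD (−dox) was the lowest of all 16 libraries, and the other 3 of its group were above all 4 libraries of SCR (−dox). The log2 fold change between those groups was 0.16 ± 0.18 (edgeR, adjusted p = 0.630) with all libraries, 0.29 ± 0.09 (adjusted p = 0.0165) without replicate 4, and 0.25 (adjusted p = 0.0267) with the GC offset. In NAA40-KD (+dox) against SCR (+dox) it was 0.07 ± 0.09 (adjusted p = 0.599). Annotated exons of *GCLC* share 529 bases with *AL033397.1*, a non-coding gene on the same strand. Of the 50-base stretches of its longest coding transcript (3813 bases), 0 occurred in another gene.

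*GCLM*, the modifier subunit of the same ligase, which makes it more efficient (chr1:93885205-93909456, minus strand), was the one gene of the set that passed in the comparison of the lines with doxycycline. It was at 38.4, 36.1, 42.3 and 36.4 CPM in NAA40-KD (+dox) and at 36.2, 29.035, 32.0 and 22.0 CPM in SCR (+dox). The lowest knockdown library and the highest SCR library were nearly level, so the groups overlapped. The log2 fold change was 0.36 ± 0.13 (1.29-fold; edgeR, adjusted p = 0.0422), and it passed with the GC offset too (0.30, adjusted p = 0.0184). The call was lost without replicate 2 or replicate 4 of SCR (+dox) or without any 1 library of NAA40-KD (+dox), with adjusted p from 0.0670 to 0.135 in those fits and fold changes from 0.24 to 0.39. Without doxycycline *GCLM* was at 33.6, 34.2, 37.3 and 16.8 CPM in NAA40-KD and at 34.1, 25.4, 31.0 and 33.1 CPM in SCR, with a log2 fold change of −0.02 ± 0.24 (adjusted p = 0.979). Without replicate 4 the fold change was 0.18 ± 0.11 (adjusted p = 0.229). The interaction was 0.38 ± 0.29 (adjusted p = 0.432), so a difference between the 2 dox labels in the effect of the line was not detected.

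The ratio of *GCLC* to *GCLM*, in counts per kb of exon, was 1.42, 1.49, 1.38 and 1.43 in NAA40-KD (+dox). It was 1.63, 1.72, 1.62 and 2.16 in SCR (+dox), 1.45, 1.82, 1.66 and 1.59 in SCR (−dox), and 1.95, 1.61, 1.71 and 2.27 in NAA40-KD (−dox). The knockdown libraries with doxycycline thus had the lowest mean ratio and the least spread (1.43 ± 0.0460, SD, n = 4). The ratio is a description of transcripts, not of subunits in the enzyme, and was not tested.

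*GSS*, glutathione synthetase, which adds glycine in the second step (chr20:34928433-34956027, minus strand), passed in no comparison. It was at 103, 99.8, 112 and 105 CPM in NAA40-KD (+dox) and at 108, 106, 127 and 127 CPM in SCR (+dox), a log2 fold change of −0.16 ± 0.09 (edgeR, adjusted p = 0.207). It was at 108, 101, 110 and 151 CPM in NAA40-KD (−dox) and at 103, 123, 103 and 105 CPM in SCR (−dox). The single high library was replicate 4, and the log2 fold change of 0.13 ± 0.17 (adjusted p = 0.697) became −0.03 ± 0.09 (adjusted p = 0.803) without it.

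*MMACHC* binds incoming cobalamin and removes its upper ligand (chr1:45500053-45513382, plus strand). Its levels were 13.9, 13.4, 16.2 and 17.1 CPM in NAA40-KD (−dox) and 19.5, 24.0, 19.3 and 19.7 CPM in SCR (−dox), so that every knockdown library was below every SCR library. The log2 fold change of −0.44 ± 0.16 did not pass (edgeR, adjusted p = 0.134), but it passed without replicate 4, at −0.51 ± 0.12 (adjusted p = 0.00417), and with the GC offset, at −0.40 (adjusted p = 0.0223). With doxycycline *MMACHC* was at 17.0, 20.7, 20.9 and 22.9 CPM in NAA40-KD and at 21.4, 20.1, 21.3 and 20.7 CPM in SCR, a log2 fold change of −0.03 ± 0.11 (adjusted p = 0.857). Its exons share 379 bases with *PRDX1*, an abundant peroxiredoxin gene on the other strand (316 ± 16.4 CPM in NAA40-KD (+dox), 416 ± 59.3 CPM in SCR (+dox)), and no source used here gives the strandedness of the counting, so its level carries that uncertainty. Without doxycycline, *PRDX1* had a log2 fold change of −0.07 ± 0.18 (adjusted p = 0.851).

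*MMADHC*, which takes cobalamin on from *MMACHC* and directs it to the cytosolic or the mitochondrial route (chr2:149569634-149587816, minus strand), was at 158, 158, 171 and 71.9 CPM in NAA40-KD (−dox). It was at 115, 106, 105 and 133 CPM in SCR (−dox), at 107, 111, 117 and 111 CPM in NAA40-KD (+dox), and at 141, 117, 156 and 102 CPM in SCR (+dox). In NAA40-KD (−dox) 3 libraries were above every other library of the series and replicate 4 was below every other one. With all libraries the log2 fold change against SCR (−dox) was 0.29 ± 0.25 (edgeR, adjusted p = 0.525). It was 0.50 ± 0.09 (adjusted p = 0.000783) without replicate 4 and 0.38 (adjusted p = 0.0126) with the GC offset. In NAA40-KD (+dox) against SCR (+dox) it was −0.21 ± 0.11 (adjusted p = 0.176). The exons of *MMADHC* share 560 bases with *AC007364.1*, a non-coding gene on the other strand.

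The ratio of *MMADHC* to *MMACHC*, in counts per kb of exon, compares these partner transcripts within each library. It was 27.4, 28.5, 25.5 and 10.2 in NAA40-KD (−dox). In the other 3 groups it ran from 10.7 to 16.3 in SCR (−dox), from 11.9 to 17.7 in SCR (+dox) and from 11.7 to 15.3 in NAA40-KD (+dox). Replicate 4 was thus below all other libraries, and the other 3 of its group were above them all. The GC content of the longest transcripts is 42.2% for *MMADHC* and 48.1% for *MMACHC*, and its part in the ratio was not tested.

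**Figure D2:**
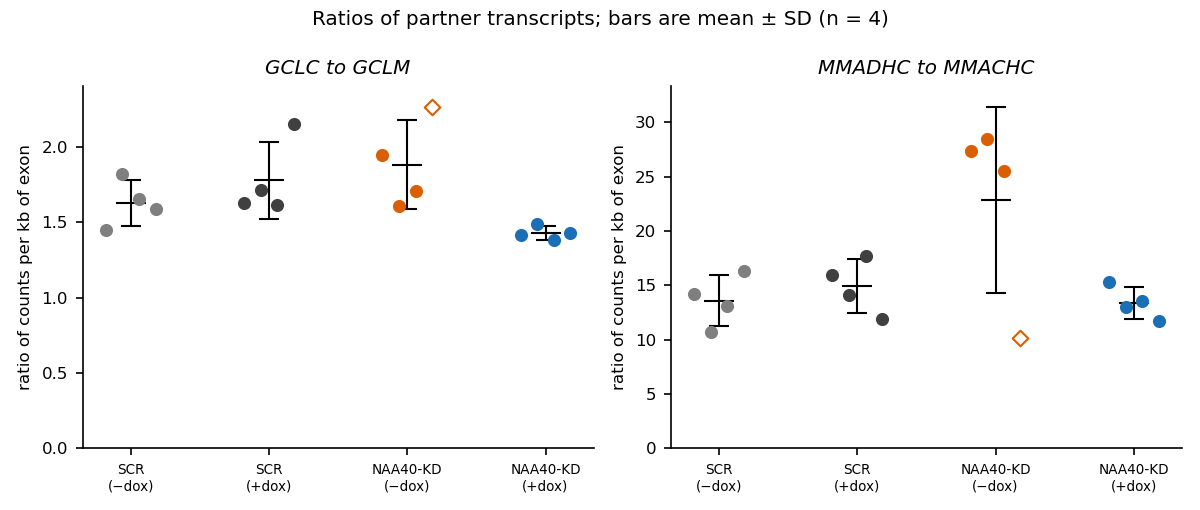
Ratio of *GCLC* to *GCLM* (left) and of *MMADHC* to *MMACHC* (right) in counts per kb of exon in each library, by group, with mean ± SD (n = 4) and replicate 4 of NAA40-KD (−dox) as an open diamond. In NAA40-KD (−dox), 3 libraries lie between 25.5 and 28.5 for *MMADHC* to *MMACHC* and replicate 4 at 10.2, and NAA40-KD (+dox) has the lowest mean for *GCLC* to *GCLM*.

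*MMAA*, a mitochondrial GTPase that guards the loading of adenosylcobalamin onto methylmalonyl-CoA mutase (chr4:145599042-145660035, plus strand), had the largest change of the 8 genes tested and also the lowest counts among them, 39 to 155 per library. It was at 11.5, 10.8, 10.3 and 5.59 CPM in NAA40-KD (−dox) and at 3.31, 4.09, 5.80 and 4.48 CPM in SCR (−dox). The means of the other groups lay between, with libraries at 6.44, 6.28, 5.90 and 5.61 CPM in NAA40-KD (+dox) and at 6.44, 5.37, 7.26 and 5.58 CPM in SCR (+dox). Replicate 4 of NAA40-KD (−dox) lay within the range of SCR (−dox), and the other 3 libraries were above all the rest. The log2 fold change between the lines without doxycycline was 1.11 ± 0.26 (2.16-fold; edgeR, adjusted p = 0.0374), the only difference between 2 groups in the set that also passed the study's threshold of an absolute log2 fold change above 1. It was 1.29 ± 0.17 (adjusted p = 4.72e-05) without replicate 4, and 1.26 (adjusted p = 9.38e-05) with the GC offset. Leaving out any 1 of the other 7 libraries took the adjusted p to between 0.0703 and 0.127, with fold changes from 1.00 to 1.28. With doxycycline the lines differed by −0.03 ± 0.15 (adjusted p = 0.908), and the interaction was −1.14 ± 0.30 (adjusted p = 0.0249), −1.32 ± 0.22 without replicate 4 and −1.34 with the GC offset. The interaction missed the threshold without replicate 3 of SCR (+dox), replicate 1 of SCR (−dox), or replicate 3 or 4 of NAA40-KD (+dox), with adjusted p from 0.0523 to 0.0576 and values from −1.12 to −1.02.

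*MMAB*, the adenosyltransferase that makes adenosylcobalamin (chr12:109553737-109573874, minus strand), was at 9.01, 10.2, 8.30 and 13.0 CPM in NAA40-KD (−dox) and at 13.9, 13.7, 11.4 and 12.2 CPM in SCR (−dox). Only replicate 4 reached the SCR range. The log2 fold change was −0.33 ± 0.19 (edgeR, adjusted p = 0.321) with all libraries, −0.48 ± 0.14 (adjusted p = 0.0119) without replicate 4, and −0.39 (adjusted p = 0.0216) with the GC offset. With doxycycline it was at 13.1, 12.6, 16.6 and 12.9 CPM in NAA40-KD and at 14.7, 12.4, 15.999 and 14.5 CPM in SCR, a log2 fold change of −0.06 ± 0.13 (adjusted p = 0.750). *MMAB* is read away from *MVK*, the mevalonate kinase gene, and shares 306 exon bases with it on the other strand. It also shares 141 exon bases with *RNU4-32P*, annotated as a small nuclear RNA, on the same strand. *MVK* had a log2 fold change of 0.62 ± 0.23 (adjusted p = 0.146) without doxycycline and 0.34 ± 0.11 (adjusted p = 0.0200) without replicate 4, the opposite sign to *MMAB*.

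Over the set, NAA40-KD (−dox) against SCR (−dox) therefore gave 1 gene that passed with all libraries, *MMAA*. Of all 13903 genes tested, 2.88% passed as higher and 3.54% as lower, and 3.47% passed with the study's fold threshold in either direction. Without replicate 4, 6 of the 8 genes tested passed: *CTH*, *GCLC*, *MMAA* and *MMADHC* were higher, and *MMAB* and *MMACHC* lower. Of all genes, 17.1% then passed as higher and 19.4% as lower. With all 8 libraries and the GC offset the same 6 genes passed in the same directions, beside 17.7% and 18.2% of all genes. *GCLM* and *GSS* passed in neither fit.

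The comparison within the knockdown line shares its NAA40-KD (−dox) libraries with the comparison just given. With all libraries *CTH* alone passed, beside 4.71% of genes higher with doxycycline, 5.5% lower and 3.99% with the fold threshold. Without replicate 4, log2 fold changes were −0.75 ± 0.08 for *CTH*, −0.17 ± 0.06 for *GCLC*, −0.85 ± 0.13 for *MMAA* and −0.54 ± 0.05 for *MMADHC*. They were 0.58 ± 0.12 for *MMAB* and 0.49 ± 0.11 for *MMACHC*, and these 6 passed (adjusted p from 6.38e-09 to 0.0248), beside 25.8% of genes higher and 26.6% lower. With the GC offset and all libraries 5 of them passed, all but *GCLC* (−0.12, adjusted p = 0.195), beside 21.8% and 22.2% of genes.

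In the comparison of the lines with doxycycline, *GCLM* alone passed, beside 10.9% of all 13869 genes higher, 13.7% lower and 2.15% with the fold threshold. With the GC offset, *GCLM* and *CTH* passed, beside 15.2% and 16.6%. In SCR, none of the 8 genes passed between the doxycycline labels, and neither did any of 13882 genes (0% higher, 0% lower and 0% with the fold threshold by edgeR, and 0 genes also by DESeq2 and limma-voom). At an unadjusted p under 0.05 there were 271 genes (1.95%, below the 5% that such a threshold would give with no differences). *MMAA* was one of them (log2 fold change 0.47 ± 0.19, unadjusted p = 0.0259), which is no call. The interaction passed for *CTH* and *MMAA*, beside 4.31% of genes above 0, 4.91% below 0 and 4.49% with the fold threshold. Without replicate 4 it also passed for *MMADHC* (−0.71 ± 0.15) and *MMACHC* (0.47 ± 0.16), beside 11.9% and 12.3% of genes. With the GC offset it passed for *CTH*, *MMAA* and *MMADHC* (−0.62), beside 14.4% and 14.6%.

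**Figure D3:**
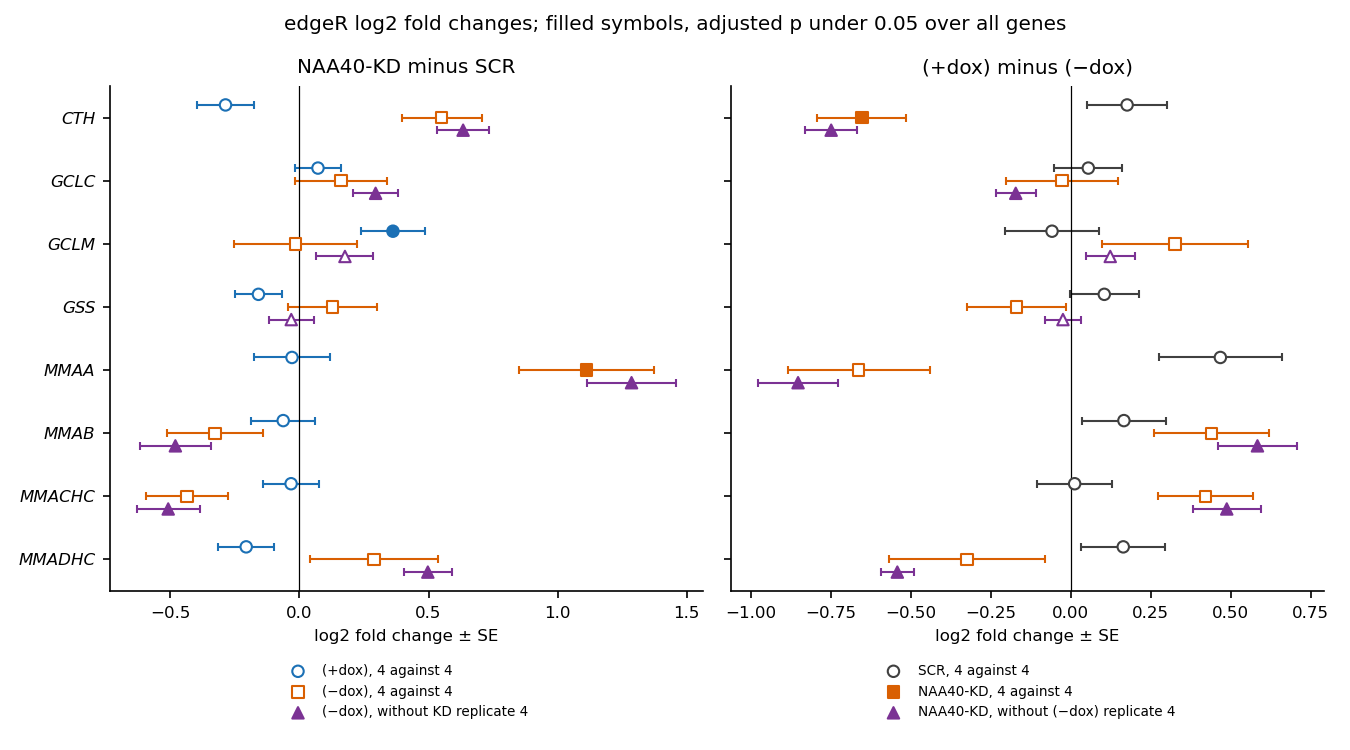
Log2 fold change ± SE (x axes) of the 8 genes tested, for NAA40-KD minus SCR with and without doxycycline (left) and for (+dox) minus (−dox) in each line (right); triangles leave out replicate 4 of NAA40-KD (−dox), and filled symbols passed at an adjusted p under 0.05 over all genes. Without replicate 4, 6 of 8 genes are filled in both comparisons that involve NAA40-KD (−dox), with opposite signs.

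The levels of the genes in replicate 4 can be set beside their GC content. *GSS*, *MMAB* and *MMACHC*, the 3 genes that were higher there than in the other 3 libraries of the group, have longest transcripts of 54.2%, 52.4% and 48.1% GC. The 5 that were lower there, *GCLC*, *CTH*, *MMADHC*, *MMAA* and *GCLM*, have 44.3%, 43.3%, 42.2%, 39.5% and 37.3% GC. Within SCR, replicate 4 with and replicate 2 without doxycycline also deviated along GC content (r = 0.636 and 0.556). Of the same 5 genes, *GCLM* and *GCLC* had the lowest level of the group in both libraries. *CTH* and *MMADHC* had it in the library with doxycycline alone, and *MMAA* in neither. Replicate 1 of SCR (+dox) deviated the other way (r = −0.562). There *CTH*, *GCLC* and *GCLM* had the highest level of the group, and *MMAA* and *MMADHC* did not. The part of GC content in these levels was not tested.

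Other genes of the same pathways were taken from 5 lists. Of 12 tested genes of cysteine supply and use, 1 was higher and 6 lower in NAA40-KD (+dox) than in SCR (+dox), with a median log2 fold change of −0.24 against −0.004 over all genes, of which 10.9% passed as higher and 13.7% as lower. Without doxycycline 0 were higher and 3 lower (median −0.12 against 0.04), beside 2.88% and 3.54% of all genes. Without replicate 4, 3 were higher and 5 lower (median −0.27 against −0.006), beside 17.1% and 19.4%. *SLC7A11*, the cystine importer, was at 66.9 ± 9.49 CPM in NAA40-KD (+dox) against 188 ± 22.9 in SCR (+dox) (SD, n = 4), a log2 fold change of −1.49 ± 0.11 (edgeR, adjusted p = 3.94e-08). Without doxycycline it was at 29.4 ± 10.7 against 144 ± 23.9 CPM, a change of −2.29 ± 0.28 (adjusted p = 0.00373). Its heavy chain *SLC3A2* had a log2 fold change of −0.97 ± 0.09 with doxycycline (adjusted p = 4.30e-07) and −0.57 ± 0.26 without (adjusted p = 0.220), where it passed once replicate 4 was left out (−0.87 ± 0.14, adjusted p = 0.000287). *SLC1A4*, a transporter of neutral amino acids including cysteine, had −1.51 ± 0.11 and −1.70 ± 0.29, and *GOT1*, the cytosolic aspartate aminotransferase that also acts on cysteine sulfinate, −1.40 ± 0.09 and −0.93 ± 0.19, all 4 of which passed. With all libraries *SLC7A11* alone of the list passed between the dox labels of the knockdown line (1.18 ± 0.28, adjusted p = 0.0293), beside 4.71% of all genes higher and 5.5% lower. Without replicate 4 there were 6 higher and 2 lower, beside 25.8% and 26.6% of all genes. In the interaction *ETHE1*, the mitochondrial persulfide dioxygenase, alone of the 12 passed with all libraries (−0.81 ± 0.24, adjusted p = 0.0450), beside 4.31% of all genes above 0 and 4.91% below. Without replicate 4 it passed at −0.63 ± 0.18, together with *SLC7A11* (0.57 ± 0.18, adjusted p = 0.0232) and *GOT2*, the mitochondrial aspartate aminotransferase (0.37 ± 0.13, adjusted p = 0.0421). Of all genes, 11.9% then passed above 0 and 12.3% below.

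In the methionine cycle, which feeds transsulfuration, 2 of 8 tested genes were higher and 0 lower in NAA40-KD (+dox) than in SCR (+dox) (median −0.04), beside 10.9% and 13.7% of all genes. Without doxycycline 1 was higher and 1 lower, beside 2.88% and 3.54%, and 2 and 2 without replicate 4, beside 17.1% and 19.4%. These counts of so few genes are near the shares over all genes. *MTR*, the cobalamin-dependent methionine synthase, was at 107 ± 1.90 CPM in NAA40-KD (+dox), 72.0 ± 12.2 in SCR (+dox), 47.4 ± 7.38 in NAA40-KD (−dox) and 81.6 ± 6.04 in SCR (−dox). It was therefore higher in the knockdown line with doxycycline (0.57 ± 0.11; edgeR, adjusted p = 0.000921) and lower without it (−0.78 ± 0.16, adjusted p = 0.0206), and the interaction was 1.35 ± 0.19 (adjusted p = 0.000435). Without replicate 4 the latter values were −0.69 ± 0.10 and 1.26 ± 0.15, and both passed. Its reactivating partner *MTRR* had changes of 0.36 ± 0.10 (adjusted p = 0.0114) and −0.38 ± 0.23 (adjusted p = 0.348), the latter −0.18 ± 0.09 (adjusted p = 0.126) without replicate 4. *MAT1A*, an S-adenosylmethionine synthetase that is weakly expressed here, was at 10.7 ± 1.23 CPM in NAA40-KD (−dox) and at 2.47 ± 0.524 in SCR (−dox), a change of 2.11 ± 0.21 (adjusted p = 0.00238) that was 2.07 ± 0.19 without replicate 4. With doxycycline it was at 3.35 ± 0.619 CPM in NAA40-KD and 3.39 ± 0.740 in SCR (−0.02 ± 0.21, adjusted p = 0.951). Its interaction was −2.12 ± 0.28 (adjusted p = 0.000311), and it changed by −1.68 ± 0.18 between the labels of the knockdown line (adjusted p = 0.00206).

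Of 18 tested genes of cobalamin uptake, transport and use, which include *MTR* and *MTRR*, 4 were higher and 2 lower in NAA40-KD (+dox) than in SCR (+dox), beside 10.9% and 13.7% of all genes. Without doxycycline 1 was higher and 1 lower, beside 2.88% and 3.54%, and 4 and 3 without replicate 4, beside 17.1% and 19.4%, close to the shares over all genes. *MCEE*, the methylmalonyl-CoA epimerase that acts just before the mutase served by *MMAA*, was higher in the knockdown line under both labels. It was at 7.23 ± 1.19 against 3.90 ± 0.294 CPM with doxycycline (0.89 ± 0.16; edgeR, adjusted p = 0.000770) and at 10.8 ± 1.64 against 4.26 ± 1.09 CPM without (1.35 ± 0.22, adjusted p = 0.0103, and 1.41 ± 0.19 without replicate 4). *CUBN*, the intestinal receptor subunit for bound cobalamin, was near the detection limit, at 1.51 ± 0.355 against 2.80 ± 0.856 CPM with doxycycline (−0.88 ± 0.26, adjusted p = 0.0203).

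Among 32 tested genes of glutathione use, recycling and breakdown, 0 were higher and 7 lower in NAA40-KD (+dox) than in SCR (+dox) (median −0.11), beside 10.9% and 13.7% of all genes. Without doxycycline 0 were higher and 1 lower, beside 2.88% and 3.54%, and 2 and 8 without replicate 4, beside 17.1% and 19.4%. *CHAC1*, which breaks glutathione down inside the cell, was lower under both labels, by −2.19 ± 0.27 (edgeR, adjusted p = 7.75e-05) and −1.86 ± 0.32 (adjusted p = 0.0119), the latter −2.22 ± 0.21 without replicate 4. Among the others that were lower with doxycycline were *GSTA4*, a glutathione transferase for lipid aldehydes (−0.81 ± 0.24), *GLRX*, a glutaredoxin that frees proteins of bound glutathione (−0.74 ± 0.12), and *GGT7*, of the gamma-glutamyltransferase family (−0.54 ± 0.12). *GSTA4* was near the detection limit, at 1.10 ± 0.160 CPM in NAA40-KD (+dox) against 1.94 ± 0.254 in SCR (+dox), which limits its interaction below as well. *GLRX* and *GGT1*, which starts the breakdown of glutathione outside the cell and has close copies in the genome, were lower with than without doxycycline in the knockdown line (−0.95 ± 0.16 and −1.40 ± 0.33, and −1.03 ± 0.11 and −0.96 ± 0.13 without replicate 4). These 2 alone of the 32 passed there with all libraries, beside 4.71% of all genes higher and 5.5% lower. Without replicate 4, 8 were higher and 8 lower, beside 25.8% and 26.6%. The interaction was below 0 for *GLRX* (−1.26 ± 0.18), *GGT1* (−1.45 ± 0.39), *GSTA4* (−1.29 ± 0.37) and *GSTZ1* (−0.75 ± 0.22), and no other gene of the list passed in it with all libraries, beside 4.31% of all genes above 0 and 4.91% below. Without replicate 4 these 4 passed again with *MGST3* (−0.61) and *GPX8* (−0.50) below 0, and *SLC25A39*, a mitochondrial glutathione carrier, passed above 0 (0.49 ± 0.13, adjusted p = 0.00978), beside 11.9% and 12.3%.

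Of the antioxidant regulators and targets of NRF2, 27 were tested with doxycycline, and 1 was higher and 8 lower in the knockdown line (median −0.15), beside 10.9% and 13.7% of all genes. Without doxycycline 1 of 28 was higher and 1 lower (median 0.13 against 0.04), beside 2.88% and 3.54%. Without replicate 4, 5 of 27 were higher and 2 lower (median 0.03 against −0.006), beside 17.1% and 19.4%. *SLC7A11* belongs to this list too. *MAFF*, a small MAF partner of NRF2 (−0.83 ± 0.14), *OSGIN1* (−0.45 ± 0.12) and *PRDX1* (−0.40 ± 0.10) were lower in NAA40-KD (+dox), while *GCLM*, also a known target, was higher. *FTL*, the ferritin light chain, was at 2089 ± 707 CPM in NAA40-KD (−dox) against 921 ± 124 in SCR (−dox) (1.19 ± 0.23; edgeR, adjusted p = 0.0195, and 0.91 ± 0.11 without replicate 4), and at 1039 ± 22.4 against 1013 ± 152 CPM with doxycycline (0.04 ± 0.10, adjusted p = 0.823). In the interaction 1 of 28 tested genes passed above 0 and 4 below, beside 4.31% and 4.91% of all genes. Those below 0 were *OSGIN1* (−1.41 ± 0.33), *MAFF* (−1.38 ± 0.30), *FTL* (−1.14 ± 0.25) and *ABCC2*, an exporter of glutathione conjugates (−0.76 ± 0.16). All 4 passed below 0 without replicate 4 as well, from −1.17 to −0.80. In that fit 2 of 28 passed above 0 and 6 below, beside 11.9% and 12.3%. None of the 5 lists had a gene that passed between the doxycycline labels of SCR.

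**Figure D4:**
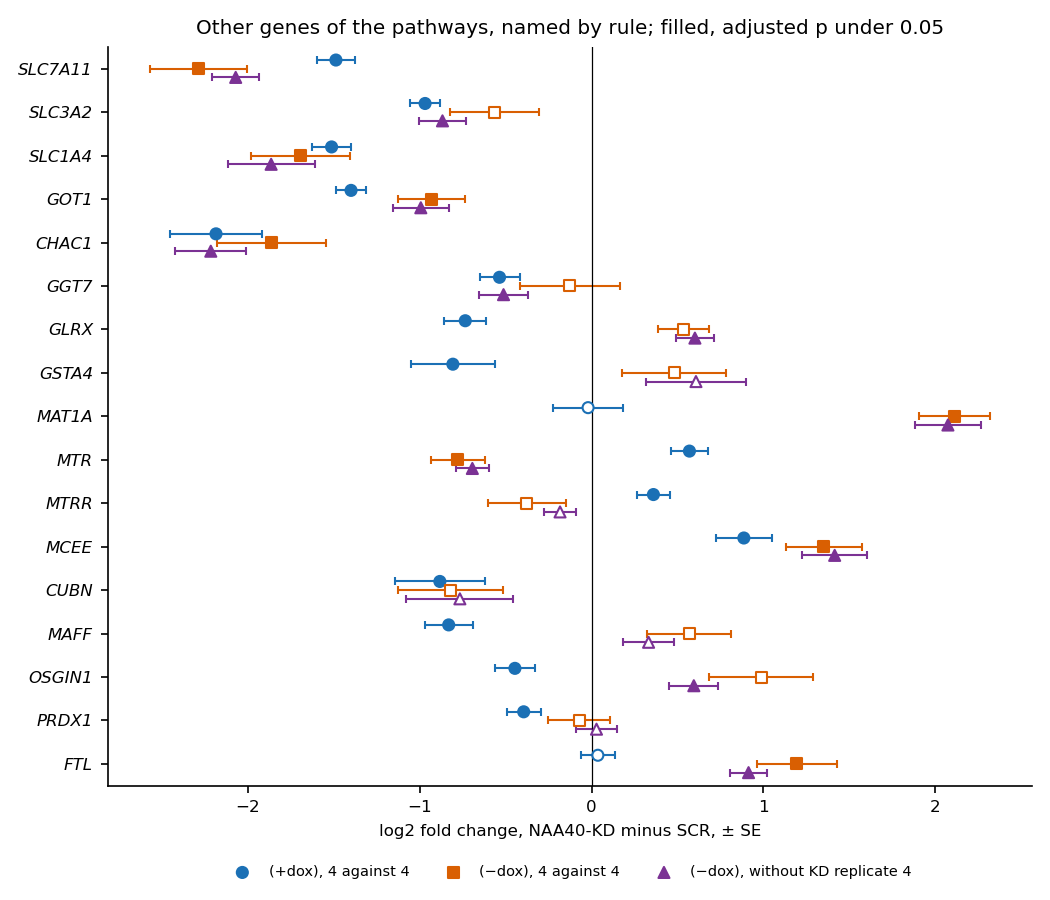
Log2 fold change ± SE (x axis), NAA40-KD minus SCR, of genes from the lists of the same pathways (y axis), with doxycycline (circles), without it (squares) and without it when replicate 4 of NAA40-KD (−dox) is left out (triangles); filled symbols passed at an adjusted p under 0.05. *SLC7A11*, *SLC1A4*, *GOT1* and *CHAC1* lie below 0 and *MCEE* above 0 under both labels, whereas *MTR* and *GLRX* lie on opposite sides.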

How the data were processed

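Expression was measured by RNA-seq in 16 libraries. The values deposited by the authors are raw counts per gene, made with STAR and featureCounts and neither normalized nor filtered. Their methods name the mouse build mm10 and the processing notes both hg38 and GRCm38, but all 33937 identifiers are human Ensembl identifiers. Genes were placed with GENCODE 29 (GRCh38), and whether counting used strand is not given in the sources used here. The methods name a stranded NEBNext kit and RNeasy columns, while in the labels RNA came from Direct-zol columns and libraries from a standard Illumina protocol. The number of count columns that matched no sample was 0. Total counts of 11065606 to 13855486 make counting error large for low genes such as *MMAA*. Pairs of libraries within a group differed by more than sampling noise (chi-square over degrees of freedom 1.74 to 140).

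Groups were taken from the labels. From the counts, log2 fold changes were obtained with edgeR 4.0.16 in R 4.3.3 (TMM, robust quasi-likelihood F test, two-sided, Benjamini-Hochberg adjustment over all genes tested) for genes above 1 CPM in no fewer than 4 of the libraries used. A gene passed at an adjusted p under 0.05, to which the study's rule adds a log2 fold change above 1 in size. Each comparison of 2 groups used its own 8 libraries, and the interaction all 16. Standard errors are the absolute log2 fold change over the square root of F. Levels are TMM-normalized CPM. The scripts were tested on simulated data.

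The genes and lists were chosen with earlier results of these data known. All 9 genes are given in full. From each list at most 4 genes per comparison are named, those that passed, whose groups did not overlap and whose change was largest. *MVK*, *PRDX1* and *CBSL* are named as neighbours or copies, and *AC007364.1*, *CDX1*, *VIL1*, *GOT2*, *SLC25A39*, *MGST3* and *GPX8* were named after their values had been seen. Exons shared with another gene and 50-base stretches found in other genes were counted on GENCODE 29.

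Alternatives were library-size normalization, DESeq2 1.42.0, limma-voom (limma 3.58.1), no filter, CPM above 1 in every library, the replicate number as a block, a fit over all 16 libraries, other thresholds and leaving out each library. Chosen after seeing the data were the lists without replicate 4 of NAA40-KD (−dox), an offset for GC content (per library, a lowess curve of span 0.3 of log2 CPM, less each gene's mean, against GC content), and that offset without the same library.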

Additional observations from a re-analysis of the deposited data

Results flagged for a closer look

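*CTH* and *MMAA* changed differently with the doxycycline label in the 2 lines, by the interaction term of edgeR: −0.83 on the log2 scale for *CTH* (adjusted p = 0.00865) and −1.14 for *MMAA* (adjusted p = 0.0249). For *CTH* the log2 fold change with doxycycline was −0.65 in the knockdown line and 0.18 in SCR, and for *MMAA* −0.66 and 0.47. If the labels of the knockdown line were exchanged, its values would turn and those of SCR would stay. The 2 interactions would then be smaller in size and of the opposite sign, and whether they would pass was not tested. The call on *CTH* was lost in 1 of 24 alternatives (adjusted p up to 0.0691) and that on *MMAA* in 4 of 24 (up to 0.0576). Beside these, *NAA40* itself had an interaction of 1.46.

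Of 33 sets of 4 libraries (a gene in a group), 6 had one library whose gap to the others, over the range, exceeded Dixon's 95% critical value for 4 values, which chance gives in about 1 of 20 sets. In replicate 4 of NAA40-KD (−dox) these were *GSS*, at 151 CPM, and *MMADHC*, at 71.9 CPM. In replicate 2 of SCR (−dox) they were *GSS*, at 123 CPM, and *MMACHC*, at 24.0 CPM. In replicate 3 of NAA40-KD (+dox) they were *MMAB*, at 16.6 CPM, and *CBS*, whose 2 counts came to 0.147 CPM. The flag on *CBS* was fixed in advance, because the other libraries of that group had 0 counts. Groups in which *CBS* had only zeros were not among the 33 sets, so the *CBS* flag does not count against the 1 in 20.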

How the results depend on the processing

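The number of genes of the set that passed in NAA40-KD (+dox) against SCR (+dox), 1 in the report, became 2 with the replicate block, the GC offset or an adjusted p under 0.1, 0 in the fit over all 16 libraries or under the study's rule, and 0 to 2 with a library left out. In NAA40-KD (−dox) against SCR (−dox), 1 became 2 with DESeq2 or an adjusted p under 0.1, 3 in the fit over all 16 libraries, 0 with the replicate block, 6 with the GC offset (6 also without replicate 4), and 0 to 6 with a library left out. Between the labels of the knockdown line, 1 became 2 with DESeq2 or an adjusted p under 0.1, 4 in the fit over all 16 libraries, 5 with the GC offset (6 without replicate 4), 0 with no filter, the replicate block or the study's rule, and 0 to 6 with a library left out. In SCR the number was 0 under all of them. For the interaction, 2 became 1 with no filter or the study's rule, 3 with the GC offset on all libraries (4 when replicate 4 was also left out), and 1 to 4 with a library left out. The causes were not tested, except that a left-out library also leaves fewer samples. Over all genes, higher and lower calls without doxycycline were 400 and 492, against 936 and 978 with DESeq2, 24 and 58 with the replicate block, 1440 and 1511 in the fit over all 16 libraries, and 79 to 203 and 147 to 235 without any 1 library other than replicate 4 of NAA40-KD (−dox). With doxycycline they were 1506 and 1896, against 1927 and 2143 with the replicate block, 278 and 688 in the fit over all 16 libraries, and 969 to 1007 and 1346 to 1405 without any 1 library of NAA40-KD (+dox). For the interaction they were 620 and 707, and as few as 392 and 428, without replicate 3 of NAA40-KD (+dox). Between the labels of the knockdown line they were 652 and 762, against 1159 and 1367 with DESeq2, 361 and 416 with the replicate block, 1448 and 1762 in the fit over all 16 libraries, and 180 to 401 and 194 to 512 without any 1 library other than replicate 4.

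Whether the replicate numbers pair the libraries could not be decided. Deviations of libraries with the same number correlated between −0.469 and 0.271, and in 0 comparisons were all 4 above 0.1. Between the labels of the knockdown line all 4 were above 0 (0.0375 to 0.271). The deviations were taken from group means, which in NAA40-KD (−dox) include replicate 4. Of 720 fold changes of single genes under the alternatives, 22 changed sign, each of them small. With a library left out, the log2 fold change ran from −0.088 to 0.055 for *MMAA* and from −0.087 to 0.046 for *MMACHC* in NAA40-KD (+dox) against SCR (+dox), from −0.12 to 0.18 for *GCLM* and from −0.032 to 0.20 for *GSS* in NAA40-KD (−dox) against SCR (−dox), from −0.17 to 0.056 for *GCLC* between the labels of the knockdown line, from −0.016 to 0.10 for *GCLC*, −0.019 to 0.083 for *MMACHC* and −0.17 to 0.064 for *GCLM* in SCR, and from −0.23 to 0.0015 for *GCLC* in the interaction. *GCLM* was at 0.15 with the GC offset, and 0.092 also without replicate 4, in NAA40-KD (−dox) against SCR (−dox). *GCLC* between the labels of the knockdown line was at 0.00062 with limma-voom, 0.0045 with no filter and 0.00043 with the replicate block. Low counts limit *MMAA*, and the shared sequence of *CBS* leaves it unread.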

Other observations

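As a description over the 16 libraries, which share groups and GC-related deviations, the genes whose log2 CPM followed *CTH* most closely were *CCNB1IP1* (Pearson r = 0.949), *MKRN1* (0.936) and *TERF2IP* (0.931). Those closest to *GCLM* were *FAM98B* (0.974), *LSM14A* (0.973) and *SHLD2* (0.970), and those closest to *MMAA* were *TSPAN13* (0.912), *LETMD1* (0.902) and *ANKRA2* (0.899). Within the set, *CTH* and *MMAA* correlated at 0.767 and *MMAB* and *MMACHC* at 0.725, while *CTH* correlated with *MMACHC* at −0.708. *GCLM* correlated with *GCLC* at 0.823 and with *GSS* at −0.808.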
